A study of Gallus gallus with 6 samples.

Results

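The middle piece of the chicken cochlear duct was compared with both end pieces, to find genes that dip or peak in the middle instead of following a gradient from the proximal to the distal end. All 6 of the 6 libraries entered the comparison, as 2 middle libraries against 4 end libraries (2 proximal and 2 distal). Within each of 2 library sets, the value of the middle piece was set against the mean of the proximal and the distal piece on the log2(RPKM + 1) scale. RPKM is the number of reads of a gene scaled by the length of the gene and by the number of aligned reads.

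The tissue came from chicken embryos at embryonic day 6.5, and each duct was divided into proximal, middle and distal parts of about the same size. Pieces of 1 region were combined before RNA was isolated, so each library stands for a pool, and the protocols speak of separate biological replicates. The sources used here do not name a strain, sex or genotype, the size of a pool, or any treatment. Every piece held future tegmentum vasculosum, the folded non-sensory roof of the duct, and part of the basilar papilla, the auditory sensory epithelium. The distal piece also held the future lagena, a vestibular sensory patch at the tip of the bird duct, so that end differs from the middle in tissue content as well as in position.

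The basilar papilla forms from prosensory cells, which leave the cell cycle and become hair cells or supporting cells. Hair cell fate depends on the transcription factor ATOH1, while Notch signals keep neighbouring cells as supporting cells. Fibroblast growth factors, retinoic acid and bone morphogenetic proteins act on the growing duct, and the lagena, like the utricle and saccule, is a macula whose hair cells lie under otoconia, calcium carbonate crystals that make it sensitive to gravity and acceleration.

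The libraries held between 9262860 and 23537713 alignments in the first set and between 56103107 and 73918748 in the second. A value of 1 read per kilobase of transcript was therefore worth 0.108 RPKM in the shallowest library and 0.0135 RPKM in the deepest. Of 17684 genes in the table, 12559 reached 1 RPKM in at least 2 libraries and were tested. SOX2, a marker of prosensory and supporting cells, measured between 42.9 and 88.5 RPKM in all 6 libraries, so the tissue label and the data did not conflict at this gene. The columns carry a region and a set but no link to an individual sample record.

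No gene differed between the middle piece and the ends after adjustment. With the limma model of region and library set, 0 of 12559 genes (0%) passed an adjusted p of 0.05 in either direction, and the smallest Benjamini-Hochberg adjusted p was 0.126, for OTOP1. At an unadjusted limma p below 0.05, 281 genes (2.24%) were higher and 143 (1.14%) lower in the middle than the mean of the ends. Without the set term, 0 genes passed in limma and 53 reached an unadjusted p below 0.05. A stricter comparison asked that the middle lie on the same side of both ends, and took the larger of the 2 limma p-values. There 0 genes (0%) passed, with 32 above both ends (0.255%) and 24 below both (0.191%) at an unadjusted p below 0.05. For the mean of the ends, the count of 0 did not hold with 1 library left out, where 1 residual degree of freedom remained. Leaving out a first-set library passed 212 genes for the proximal, 6 for the middle and 21 for the distal piece. Leaving out a second-set library passed 2171 genes for the proximal, 33 for the middle and 23 for the distal piece. For both ends, 0 genes passed without either proximal library, and the other fits passed 2 (first-set middle), 4 (first-set distal), 8 (second-set middle) and 4 (second-set distal). For a single gene, an exact permutation test of 2 middle against 4 end libraries has 15 arrangements and could not give a p below 0.0667. With the middle label permuted within each set, as the comparison is made, there are 9 arrangements and the floor of the permutation p is 0.111.

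The sets gave different pictures for most genes. The middle-minus-ends difference had a median of 0.08 log2 units over all tested genes in the first set and -0.03 in the second, and its Pearson correlation between sets across genes was 0.07 (genes are not independent replicates). Its sign was the same in both sets for 41.7% of genes. Averaged over the sets, 56.4% of genes lay above the mean of the ends and 43.6% below. The largest class of disagreement held 2583 genes ordered proximal, middle, distal from low to high in the first set but lowest in the middle in the second. A gene was called a peak where the middle exceeded both ends within each set, and a dip where it lay below both. Peaks in both sets numbered 829 (6.6%) and dips 607 (4.83%). Beside them, 1074 genes were ordered from low proximally to high distally in both sets (8.55%) and 704 in the opposite order (5.61%). Within the first and the second set alone, peaks numbered 3101 and 3250, and dips 2278 and 4446. Genes ordered from low proximally to high distally numbered 4481 and 2489, and those in the opposite order 2660 and 2364. Unrelated sets would also share many genes, so the shared counts alone do not show that a shape recurred.

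Few of the peaks and dips in both sets were large. At a margin of 1.5-fold to the nearer end in both sets, on the RPKM + 1 scale, 10 genes peaked (0.0796%) and 13 dipped (0.104%). At 2-fold, 2 genes peaked (0.0159%) and 4 dipped (0.0318%). Of the 205 first-set peaks of 1.5-fold, 4.88% recurred in the second set, and of the 123 first-set dips, 10.6% did. Conversely, 10.4% of the 96 second-set peaks and 26% of the 50 second-set dips were found in the first. Both middle libraries lay above all 4 end libraries for 134 genes (1.07%) and below all 4 for 111 (0.884%).

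**Figure D1:**
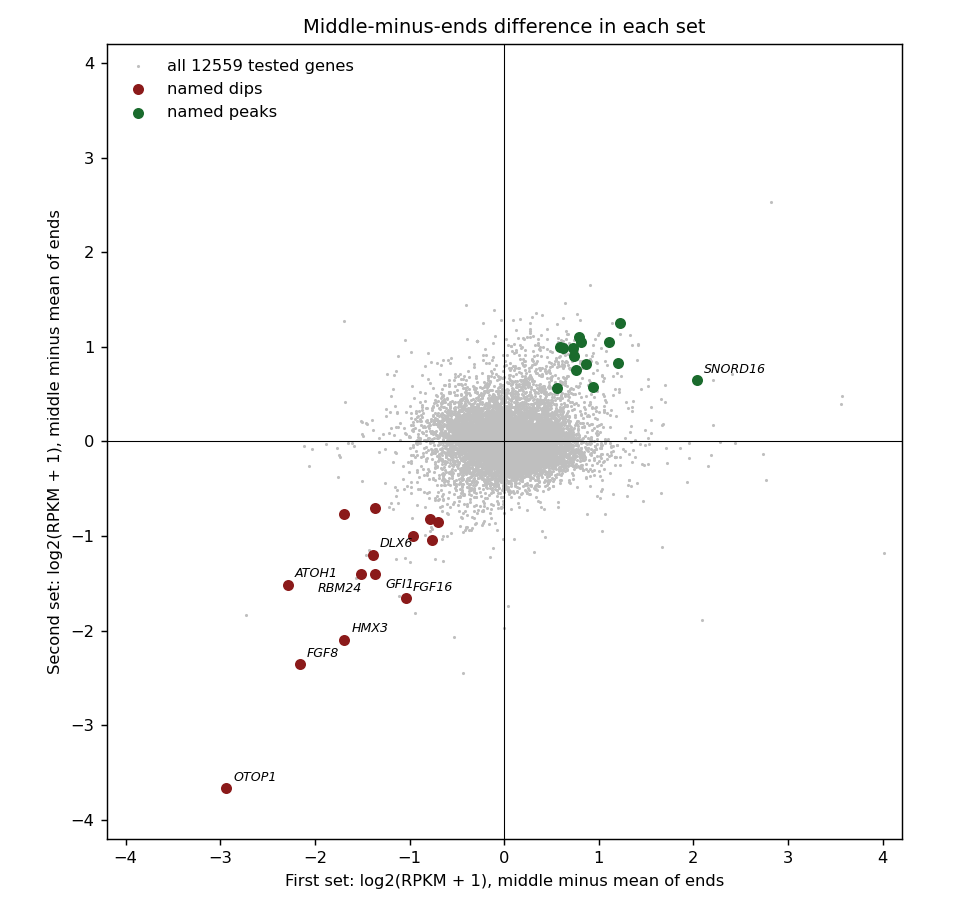
Middle-minus-ends difference on log2(RPKM + 1) in the first set (x axis) and the second set (y axis), with 1 grey point per tested gene, dark red points for the 14 named dips and green points for the 14 named peaks. Most genes form a round cloud about 0, while OTOP1 stands alone at -2.94 and -3.67, with FGF8 and HMX3 next along the diagonal among the dips.

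The genes below are the 14 dips and 14 peaks with a symbol that had the largest margin to the nearer end in the set where that margin was smaller. They were ranked on the contrast itself, so their direction, and most of the gap between middle and end libraries, follow from the ranking and are given as a description. Near the 1.5-fold margin, the last dip inside was FGF16 at 1.54-fold and the first outside CRYBB1 at 1.49-fold. The last peak inside was MSC at 1.53-fold and the first outside NTRK2 at 1.50-fold (rounded up from just under the margin).

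The 4 dips with the largest margins were OTOP1, FGF8, HMX3 and ATOH1. OTOP1 encodes a proton channel that mice need to form otoconia. It measured 35.9, 4.14 and 40.9 RPKM in the proximal, middle and distal library of the first set, and 50.03, 3.77 and 70.9 RPKM in the second. Both middle libraries lay far below all 4 end libraries, and the mean over the end libraries was 12.5 times the mean over the middle libraries. The log2(RPKM + 1) difference was -3.30 ± 0.23 (SE of the limma fit, 2 middle and 4 end libraries), with a limma p of 1.01e-05 and an adjusted p of 0.126. The nearer end exceeded the middle by at least 7.18-fold on the RPKM + 1 scale in each set. In tissue that was pooled and sequenced in bulk, fewer cells of a type and less RNA per cell cannot be told apart.

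ATOH1, the transcription factor that starts hair cell differentiation, measured 44.7, 7.95 and 40.7 RPKM in the first set and 18.5, 7.77 and 31.1 RPKM in the second, in the order proximal, middle, distal. The middle libraries were close to each other and below every end library, while the proximal libraries differed more between sets than any others. The difference was -1.90 ± 0.28 log2 units, with a limma adjusted p of 0.712. GFI1, a zinc finger repressor that mouse hair cells need to survive, measured 3.14, 0.102 and 0.949 RPKM, then 3.90, 0.461 and 2.03 RPKM. Its middle values were the lowest in each set, and the first-set middle value rests on 2.41 reads per kilobase. Its difference was -1.38 ± 0.20 log2 units (limma adjusted p 0.712).

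RBM24, an RNA-binding protein that controls splicing and is found in hair cells of mice, measured 10.8, 1.88 and 4.75 RPKM in the first set and 11.0, 2.66 and 6.83 RPKM in the second. Proximal libraries were the highest, distal libraries intermediate and middle libraries the lowest, with no overlap between regions. The difference from the mean of the ends was -1.46 ± 0.20 log2 units (limma adjusted p 0.712).

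Of the 14 named dips, 3 were secreted fibroblast growth factors. FGF8, a ligand made in mice by the inner hair cells and by many other signalling centres of the embryo, measured 7.52, 1.38 and 12.3 RPKM in the first set and 5.33, 0.801 and 12.4 RPKM in the second. The distal libraries were the highest and the middle libraries the lowest, so the ends differed from each other too. The difference was -2.26 ± 0.21 log2 units, with a limma adjusted p of 0.286, and the mean over end libraries was 8.61 times that over middle libraries. FGF20, which mice need for the outer compartment of the organ of Corti, measured 13.7, 6.55 and 13.7 RPKM, then 10.1, 4.56 and 10.1 RPKM. Its ends were level within each set, and its middle libraries lay below all end libraries, with a difference of -0.98 ± 0.18 log2 units (limma adjusted p 0.919). FGF16, of the same ligand subfamily as FGF20, measured 4.46, 2.54 and 8.69 RPKM, then 4.83, 1.29 and 7.95 RPKM, so its distal end was the higher. Its difference was -1.35 ± 0.23 log2 units, with the same adjusted p of 0.919 in limma.

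The list of FGF ligands, receptors and targets had 26 tested genes, of which 10 lay above and 16 below the mean of the ends, with a median of -0.05 log2 units beside 0.03 over all genes. Dips in both sets numbered 8 of 26, beside 4.83% of all tested genes, and 3 lay below all 4 end libraries, beside 0.884% of all. The list was not uniform. FGF12 is an intracellular factor that binds voltage-gated sodium channels and, despite its name, is not secreted. It measured 21.6, 45.4 and 27.8 RPKM in the first set and 35.1, 54.3 and 26.3 RPKM in the second, so both middle libraries exceeded every end library, by 0.84 ± 0.21 log2 units over the mean of the ends (limma adjusted p 1.00). FGFR3, a receptor of supporting cells, measured 3.90, 25.0 and 35.1 RPKM, then 12.5, 60.3 and 86.5 RPKM. It was 2.296 ± 0.20 log2 units higher in the middle than proximally and 0.49 ± 0.20 lower than distally, which is a gradient and not a peak.

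Homeobox genes of the otic vesicle formed the third group of dips. HMX3, which mice need for vestibular development, measured 29.0, 5.81 and 15.1 RPKM in the first set and 27.7, 4.57 and 18.8 RPKM in the second. The order proximal, distal, middle from high to low was the same in both sets, with no overlap, and the difference was -1.89 ± 0.20 log2 units (limma adjusted p 0.457). DLX5 and DLX6, neighbouring homeobox genes that act in the dorsal otic vesicle of mice, both dipped, to differing depths. DLX6 measured 6.15, 0.669 and 1.68 RPKM, then 4.29, 0.835 and 2.35 RPKM, with a difference of -1.29 ± 0.23 log2 units (limma adjusted p 0.919). DLX5 measured 23.4, 13.9 and 25.9 RPKM, then 16.1, 10.6 and 23.3 RPKM, with a difference of -0.80 ± 0.18 log2 units (limma adjusted p 1.00). DLX6 was highest proximally and DLX5 distally. PAX2, a paired-box factor of the early otic placode, measured 37.2, 15.1 and 20.6 RPKM, then 61.3, 26.5 and 46.5 RPKM. Its middle library was the lowest of each set, although the second-set middle library exceeded the first-set distal one.

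In the list of otic patterning transcription factors, 14 of 32 tested genes lay above and 18 below the mean of the ends, with a median of -0.05 log2 units, and 15 below with a median of 0.02 without the first-set distal library. Dips in both sets numbered 7 and peaks 4, where the shares over all tested genes were 4.83% and 6.6%. Both middle libraries lay below all 4 end libraries for 4 of the 32, beside 0.884% of all genes. MSX1, a homeobox gene listed here among the targets of bone morphogenetic proteins, had a large contrast without a large dip. It measured 22.3, 6.30 and 99.8 RPKM in the first set and 8.17, 7.15 and 90.8 RPKM in the second. The distal libraries stood far above the rest, and the middle lay only 1.12-fold below the nearer end in the second set. The log2 difference of -2.28 ± 0.33 (limma adjusted p 0.712) was thus made up of -3.64 ± 0.38 against the distal end and -0.92 ± 0.38 against the proximal end.

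Among the other named dips, SOCS2 encodes an inhibitor of cytokine signalling, DLK2 a membrane protein with EGF-like repeats, POPDC3 a membrane protein of the Popeye family, and CRYBB1 a lens crystallin. SOCS2 measured 15.1, 8.59 and 13.99 RPKM, then 10.5, 5.31 and 10.3 RPKM, with ends close to each other in each set. CRYBB1 had less even ends, at 28.6 and 16.4 RPKM around 6.01 in the first set and 9.93 and 13.2 RPKM around 6.33 in the second. Every end library exceeded both middle libraries for each of the 14 dips (0.884% over all genes), a separation that the ranking favours. Over them, the log2 difference ranged from -3.30 to -0.77, the distal mean was higher than the proximal mean for 5, and limma adjusted p ranged from 0.126 to 1.00. With 1 library left out, the OTOP1 difference was -2.94 to -3.67 log2 units. All 14 dips kept their direction in each of these fits, which their ranking on the same values largely fixes.

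**Figure D2:**
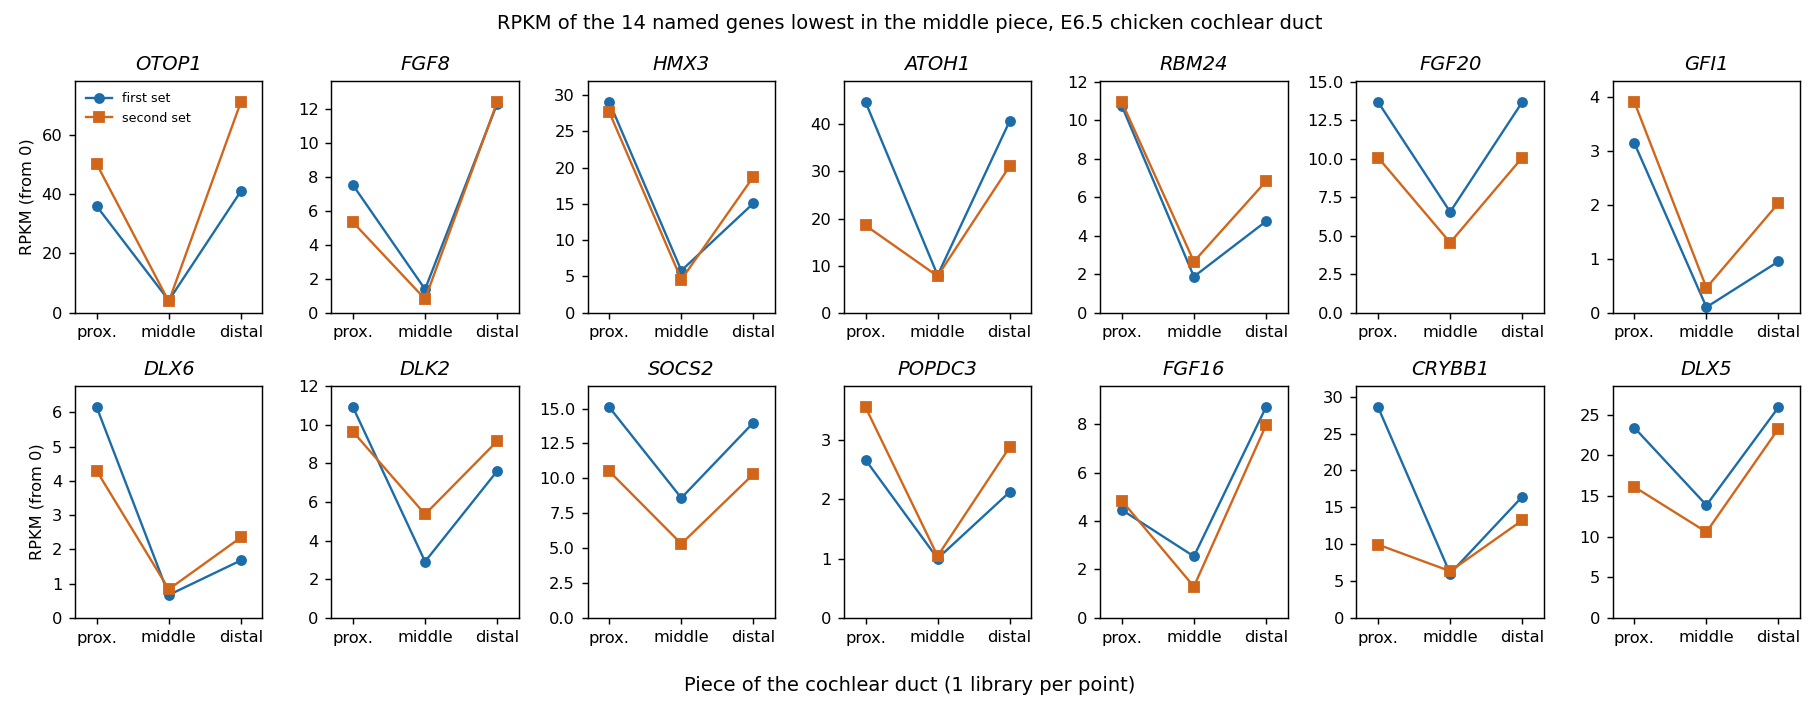
RPKM of the 14 named dips in the proximal, middle and distal piece (x axis), with 1 point per library, blue circles for the first set and orange squares for the second, and a y axis from 0 in each panel. The V shape recurs in both sets for all 14, and the higher end varies, being distal for FGF8 and FGF16 and proximal for HMX3 and RBM24.

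Hair cell genes as a group did not all dip. Of 30 tested hair cell genes, 10 lay above and 20 below the mean of the ends, with a median of -0.18 log2 units. That median was -0.20 against the proximal end and -0.002 against the distal end. In both sets 6 genes were ordered from high proximally to low distally, beside 5.61% of all genes. At an unadjusted limma p below 0.05, 1 was higher and 9 lower, beside 2.24% and 1.14% of all tested genes. Dips in both sets numbered 6 (4.83% over all genes), and 4 lay below all 4 end libraries (0.884% over all genes). The 3 peaks were close to the share over all genes (6.6%). Some of the low members followed a step, high proximally and low in both other pieces. OCM2, a parvalbumin-family calcium buffer, measured 38.4, 3.92 and 1.85 RPKM, then 29.4, 1.65 and 1.22 RPKM, and reads from near-identical copies may have been split between them. It was 3.26 ± 0.25 log2 units lower in the middle than proximally but 0.52 ± 0.25 higher than distally. POU4F3, a transcription factor that hair cells need to survive and named here after its values were seen, measured 34.95, 12.0 and 9.55 RPKM, then 26.7, 12.0 and 11.8 RPKM, so its middle and distal libraries were alike. LHX3, a LIM homeobox gene of hair cells also named after its values were seen, did dip, at 5.42, 0.593 and 1.98 RPKM, then 5.09, 0.532 and 1.04 RPKM. MYO7A, a motor protein of the hair bundle chosen in the same way, lay at 1.74, 1.23 and 2.15 RPKM, then 8.02, 4.17 and 6.603 RPKM, and its level differed more between sets than between pieces.

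The summed level of the hair cell list was 361 and 277 RPKM in the middle libraries, 603 and 485 RPKM in the proximal and 462 and 347 RPKM in the distal libraries, lowest in the middle within each set. ATOH1, GFI1 and the other hair cell dips belong to the list, so their values are part of these sums. GFI1 added at most 3.90 RPKM to any of them. OCM2 and POU4F3 belong to the list too, and fell from proximal to middle without dipping. The part of single members in those differences was not tested.

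The macula list held 12 tested genes, 5 above and 7 below the mean of the ends, beside 56.4% and 43.6% of all tested genes. Its median was 0.04 log2 units in the first set and -0.12 in the second. OTOP1 was its 1 dip in both sets (8.33% of the list, beside 4.83% of all genes). The list also had 1 peak in both sets (6.6% over all genes). OTOL1, a collagen-like protein of the otoconial matrix, measured 43.2, 4.05 and 0.759 RPKM, then 23.3, 1.83 and 0.377 RPKM, a decline from proximal to distal. NOX3, an oxidase that mice need for otoconia, measured 1.28 and 0.182 RPKM proximally and in the middle of the first set and was listed at 0 distally, then 2.57 RPKM proximally, listed at 0 in the middle and 0.0327 RPKM distally. OTOL1 and NOX3 were therefore low at the distal end, where OTOP1 was high. The summed list, 1637 and 1556 RPKM in the middle libraries, lay above the proximal and below the distal sums within each set.

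The named peaks had smaller margins than the named dips and were not led by hair cell genes. Of the 10 peaks of 1.5-fold in both sets, 4 had no symbol and are not named here. The 2 peaks of 2-fold were among them, so the largest peaks are not in the named group. Of the 13 dips of 1.5-fold, 1 had no symbol. VSTM2A, a secreted protein with an immunoglobulin domain, had nearly the same values in both sets, at 10.1, 17.8 and 4.84 RPKM in the first and 10.6, 18.2 and 4.63 RPKM in the second. Both middle libraries lay above all end libraries, and the proximal end above the distal. The difference was 1.24 ± 0.18 log2 units, with a limma p of 0.000567 and an adjusted p of 0.712. FSHB, the hormone-specific subunit of follicle-stimulating hormone, had the largest margin of the named peaks, 1.75-fold, at 7.07, 22.6 and 12.1 RPKM, then 7.01, 13.0 and 6.79 RPKM (1.02 ± 0.24 log2 units, limma adjusted p 1.00).

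Several of the 14 peaks are known for roles in neurons. NTRK2, the receptor for the growth factor BDNF, measured 5.12, 10.4 and 6.58 RPKM, then 20.3, 36.1 and 17.6 RPKM. Its level differed more between sets than between pieces, so middle and end libraries overlapped across sets, while the middle led within each. The difference was 0.82 ± 0.20 log2 units (limma adjusted p 1.00). UNC80, a subunit of a sodium leak channel, behaved alike at 0.806, 2.26 and 0.264 RPKM, then 8.75, 14.4 and 4.68 RPKM (1.081 ± 0.19 log2 units, limma adjusted p 0.919). PIRT, a membrane protein that modulates channels of sensory neurons, measured 1.28, 3.12 and 1.41 RPKM, then 2.12, 4.44 and 1.21 RPKM. An entry without a symbol had values close to those of PIRT, least so in the distal libraries, so reads may be shared between them and the PIRT level is uncertain.

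ESRRG, an orphan nuclear receptor, measured 22.2, 32.2 and 16.3 RPKM, then 29.0, 51.6 and 22.5 RPKM, with both middle libraries above all ends (0.86 ± 0.17 log2 units, limma adjusted p 0.919). MSC, a basic helix-loop-helix repressor also called musculin, measured 24.4, 38.2 and 24.6 RPKM, then 20.2, 43.4 and 22.8 RPKM, with ends close to each other. IL1RAPL2, BAI1, SULT4A1, HS3ST4 and IAPP filled further places, with differences between 0.57 and 0.95 log2 units. SNORD16, a small nucleolar RNA, was listed at 0 in both first-set end libraries and at 3.09 RPKM in the middle, then at 1.403, 2.52 and 1.11 RPKM in the second set. Its fitted difference depends on the pseudocount and gives no fold. Over all 14 peaks the margin ranged from 1.41-fold to 1.75-fold, and limma adjusted p ranged from 0.712 to 1.00. Of these peaks, 9 had both middle libraries above every end library (1.07% over all genes), a separation that the ranking favours. With 1 library left out, all 14 peaks kept their direction in each fit, which their ranking on the same values largely fixes.

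**Figure D3:**
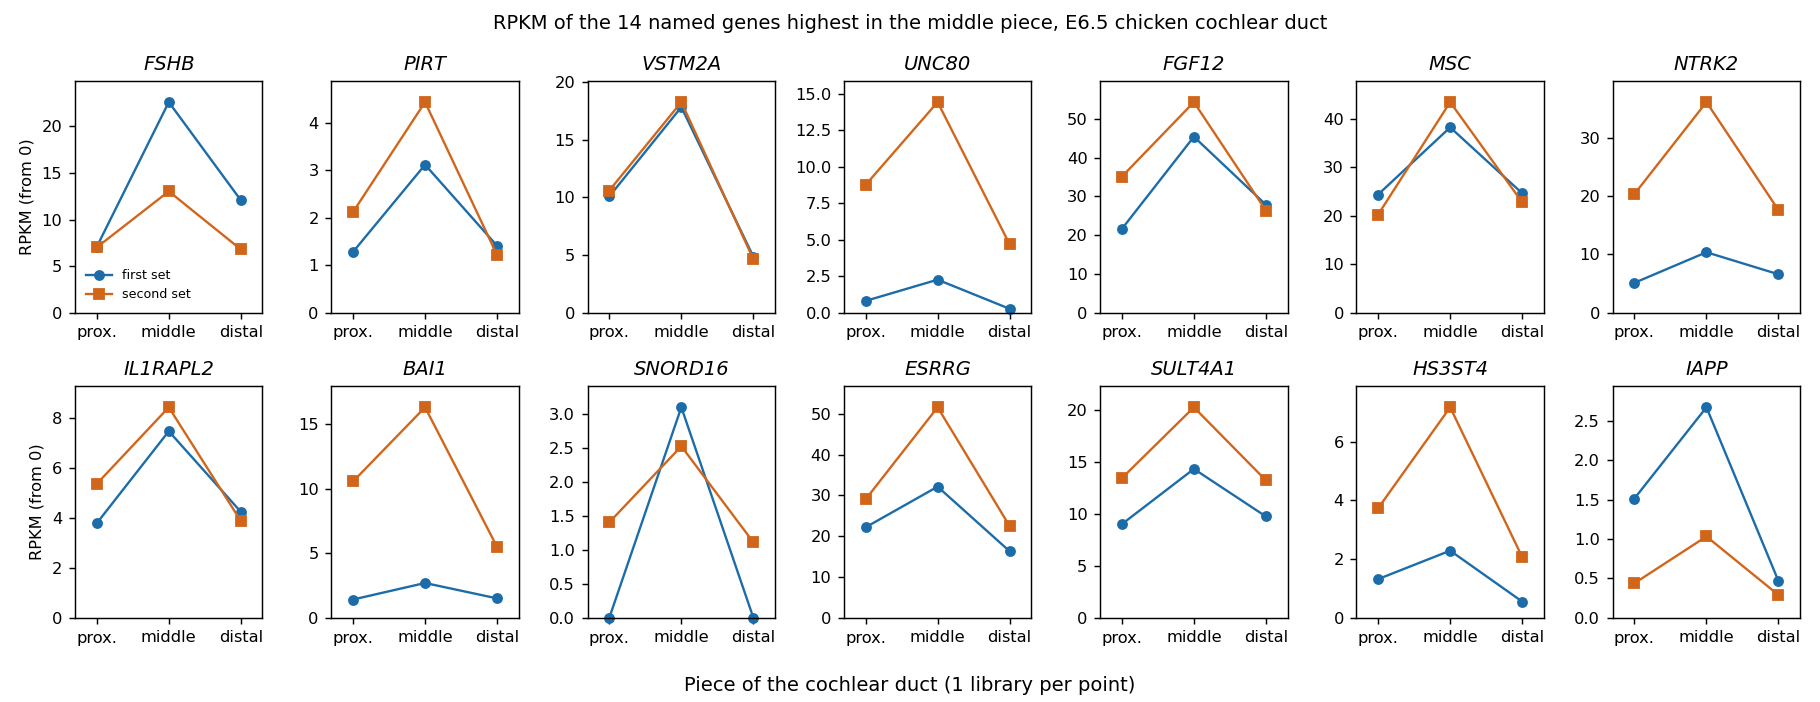
RPKM of the 14 named peaks in the proximal, middle and distal piece (x axis), with 1 point per library, blue circles for the first set and orange squares for the second, and a y axis from 0 in each panel. VSTM2A nearly coincides between sets, whereas NTRK2, UNC80 and BAI1 peak at higher levels in the second set.

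Neuron genes lay high in the middle and proximal pieces and low in the distal piece. Of 30 tested neuron genes, 29 lay above the mean of the ends, beside 56.4% of all tested genes. At an unadjusted limma p below 0.05, 18 were higher, beside 2.24% of all. The median was 0.56 log2 units above the mean of the ends, but 0.02 against the proximal end and 1.21 against the distal end, so most of these differences were a step at the distal end. Peaks in both sets numbered 8 (6.6% over all genes), and STMN2 alone of the list was above all 4 end libraries (1.07% over all genes). STMN2, a growth-cone protein that binds tubulin, is also named in view of that value. It measured 137, 293 and 96.0 RPKM in the first set and 152, 190 and 57.2 RPKM in the second (1.18 ± 0.24 log2 units, limma adjusted p 0.919). STMN3, of the same family, measured 58.8, 74.7 and 23.0 RPKM, then 99.8, 131 and 34.3 RPKM (1.07 ± 0.17 log2 units). GAP43, a protein of growing axons, measured 280, 195 and 44.0 RPKM, then 249, 279 and 51.6 RPKM, with the proximal library above the middle in the first set and below it in the second.

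The summed neuron list was 2899 and 3177 RPKM in the middle libraries, 4013 and 2781 RPKM in the proximal and 1261 and 1199 RPKM in the distal libraries. The middle sum exceeded the proximal sum in the second set but not in the first. The cochlear ganglion lies beside the duct. NTRK2 belongs to the neuron list, so its values are part of these sums, while UNC80 and PIRT do not belong to it. The part of neuron content in these peaks was not tested. The glia list, with 11 tested genes, had a median of 0.12 log2 units against the mean of the ends. Its median was -0.33 against the proximal end and 0.84 against the distal end. Without the second-set proximal library, the median against the mean of the ends was -0.08. EDNRB, an endothelin receptor of neural crest cells, measured 48.4, 31.9 and 8.80 RPKM, then 69.1, 51.1 and 17.2 RPKM, highest proximally.

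Of 22 tested prosensory and supporting cell genes, 15 lay above and 7 below the mean of the ends, beside 56.4% and 43.6% of all tested genes. The median was 0.16 log2 units, but 0.35 against the proximal end and -0.07 against the distal end. In both sets 6 were ordered from low proximally to high distally (8.55% over all genes). Peaks in both sets numbered 5 (6.6% over all genes) and dips 1 (4.83% over all genes), and 3 genes lay above all 4 end libraries (1.07% over all genes). GATA3, a zinc finger factor that marks the auditory prosensory domain, measured 113, 171 and 128 RPKM, then 111, 240 and 169 RPKM. Both middle libraries exceeded every end library, narrowly so for the first-set middle and the second-set distal library (0.65 ± 0.19 log2 units, limma adjusted p 1.00). HEY2, a Notch target of supporting cells, measured 11.4, 15.7 and 9.81 RPKM, then 7.08, 14.4 and 8.44 RPKM (0.67 ± 0.20 log2 units, limma adjusted p 1.00). Of the 19 tested genes of the Notch list, 8 lay above and 11 below the mean of the ends.

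**Figure D4:**
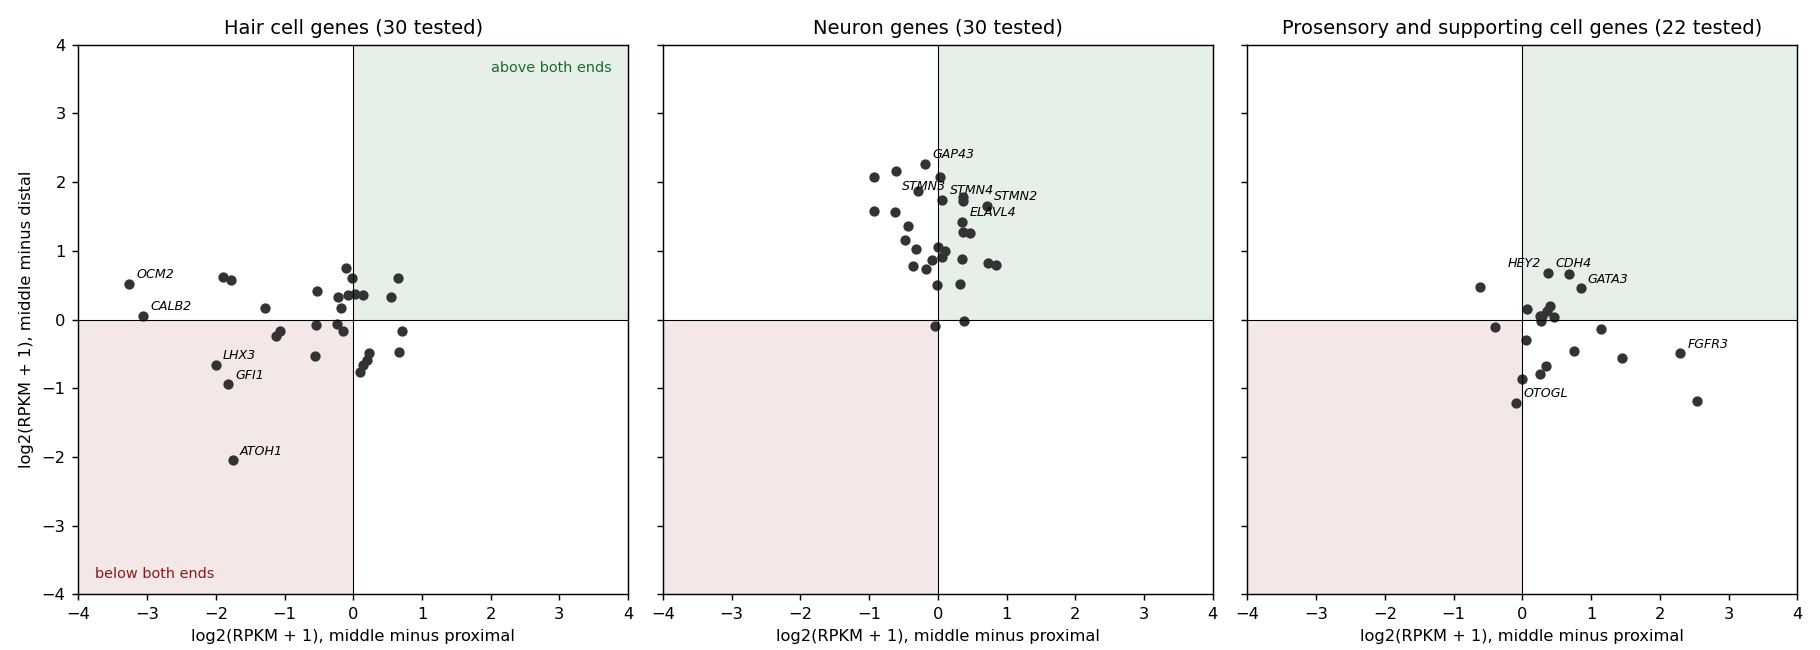
Difference of the middle from the proximal end (x axis) and from the distal end (y axis) on log2(RPKM + 1), with 1 point per tested gene of the hair cell, neuron and prosensory lists; green marks above both ends and red below both. ATOH1, GFI1 and LHX3 lie in the red corner, and OCM2 lies at the far left just above it. Neuron genes spread along the top around 0 on the x axis, and GATA3 and HEY2 lie in the green corner.

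Several inhibitors and enzymes of signalling pathways also dipped. Of 7 tested antagonists of bone morphogenetic proteins, 6 lay below the mean of the ends and 1 above, with a median of -0.15 log2 units; with a pseudocount of 0.1 the split was 4 below and 3 above, and with quantile normalization 5 and 2. NBL1, a secreted antagonist, measured 296, 94.6 and 121 RPKM, then 178, 62.0 and 130 RPKM, with both middle libraries below all ends (-1.13 ± 0.23 log2 units, limma adjusted p 0.919). TWSG1, which modulates the same ligands, measured 49.8, 30.6 and 43.6 RPKM, then 33.4, 25.5 and 37.1 RPKM (-0.52 ± 0.18 log2 units). BMPER, a binding protein of the same ligands, was the exception, at 5.72, 12.7 and 10.7 RPKM, then 7.68, 18.3 and 12.9 RPKM, the middle being highest in each set. Among 5 tested ligands, 2 lay above and 3 below the mean of the ends (3 and 2 without the first-set proximal or the second-set distal library), BMP5 measuring 0.38 ± 0.19 and BMP2 -0.63 ± 0.20 log2 units. Of 19 receptors, SMADs and targets, 14 lay above and 5 below, beside 56.4% and 43.6% of all tested genes. With quantile normalization the split was 10 above and 9 below, and with median ratio rescaling 11 and 8. SMAD9 measured 1.86, 3.76 and 2.40 RPKM, then 6.75, 12.3 and 6.28 RPKM.

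Retinoic acid genes had 15 tested members, 5 above and 10 below the mean of the ends, with 4 dips in both sets (4.83% over all genes). Their median was -0.16 log2 units against the mean of the ends, -0.42 against the proximal end and 0.20 against the distal end. CYP26A1, which degrades retinoic acid, measured 1.88, 0.234 and 1.04 RPKM, then 2.06, 0.427 and 1.06 RPKM, low everywhere and lowest in the middle (-0.89 ± 0.18 log2 units, limma adjusted p 0.919). ALDH1A3, which makes retinoic acid, was highest proximally, at 37.0, 6.82 and 1.93 RPKM, then 70.8, 3.15 and 6.10 RPKM. Its middle lay between the ends in the first set and below both in the second. Wnt genes had 42 tested members, 17 above and 25 below the mean of the ends, with 16 ordered from low proximally to high distally in both sets (8.55% over all genes) and 5 dipping in both (4.83%). WNT4, a secreted ligand, measured 16.6, 13.4 and 56.8 RPKM, then 13.3, 10.8 and 54.1 RPKM, and so was a distal step with a shallow dip (-1.20 ± 0.17 log2 units, limma adjusted p 0.712). WIF1, a secreted Wnt inhibitor, measured 2.44, 0.884 and 1.73 RPKM, then 3.01, 1.12 and 2.53 RPKM, and both middle libraries lay below all ends.

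Of 24 tested cartilage and mesenchyme genes, 21 lay below the mean of the ends, beside 43.6% of all tested genes, with a median of -0.24 log2 units and 9 dips in both sets (4.83% over all genes). COL1A2, a fibrillar collagen of mesenchyme, measured 46.7, 25.3 and 43.8 RPKM, then 104, 79.7 and 98.3 RPKM. The summed cartilage list was 938 and 1454 RPKM in the middle libraries, 1081 and 1557 RPKM in the proximal and 1381 and 1865 RPKM in the distal libraries, lowest in the middle of each set, and its part in the dips of this and other lists was not tested. The tegmentum list, with 15 tested genes, had 3 above and 12 below the mean of the ends and a median of -0.10 log2 units, but 8 below without the first-set distal library. Red blood cell genes, with 14 tested, had 4 above and 10 below, with medians of -0.55 against the proximal and 0.25 against the distal end. HBM, a globin chain, measured 1263, 359 and 263 RPKM, then 504, 265 and 229 RPKM, a decline along the duct. Of 15 leukocyte genes 11 lay below, but 6 without the second-set distal library, where the median turned from -0.15 to 0.03 log2 units. Of 16 endothelial genes 12 lay below, but 8 without the first-set proximal or the first-set middle library, and the medians of the sets were -0.13 and 0.04 log2 units. Of 13 muscle genes 9 lay below, with a median of -0.08 log2 units.

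**Figure D5:**
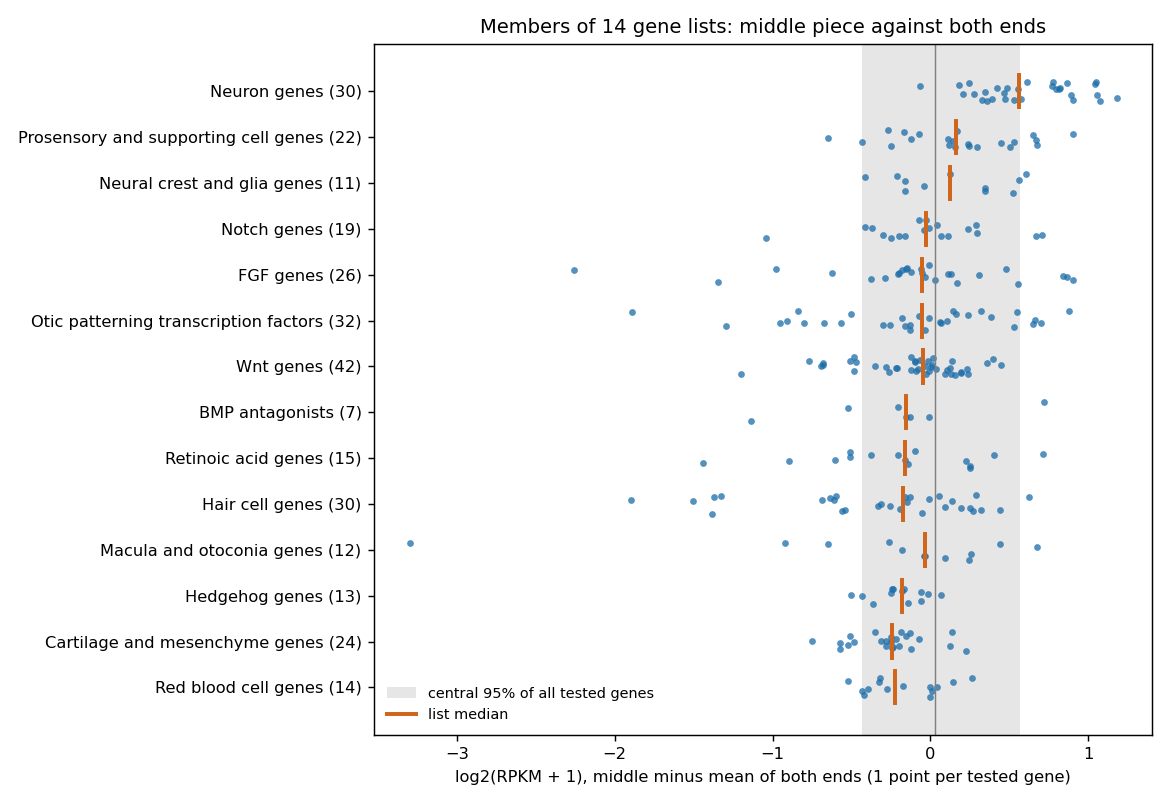
Middle-minus-ends difference on log2(RPKM + 1) for the tested genes of 14 lists (x axis), with 1 point per gene, an orange bar at each list's median and grey shading for the central 95% of all tested genes. The neuron list lies to the right with a median of 0.56 and the cartilage list to the left with -0.24. The hair cell and macula lists have medians of -0.18 and -0.04, each with several members left of the shading.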

How the data were processed

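RNA-seq was deposited for 6 libraries, with 2 of each region. RPKM values per gene were deposited by the authors. The tools named in the submitters' processing notes are TopHat 1.4.0 and Partek 6.6. Build, annotation and strand setting: not given in the sources used here. Per the labels' protocols mRNA was selected on oligo-dT beads with alternative library kits. Regions and sets were taken from the column names. The alignment total was kept out of all tests. Read counts were not used here, so no count model was run, and depth limits the precision of low RPKM values.

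Genes with at least 1 RPKM in at least 2 libraries were tested on log2(RPKM + 1) with limma 3.58.1 (R 4.3.3), with region and library set as terms, a mean-variance trend and Benjamini-Hochberg adjustment over all 12559 tested genes. Fold changes on this scale understate those of low genes. The set term follows the comparison, which is made within sets. Deviations between sets correlated across genes between the proximal and middle (0.659), proximal and distal (0.655) and middle and distal (0.885) libraries. The protocols state separate biological replicates without saying which libraries they are. With the set term, p-values measure how far the differences between regions disagreed between sets, which may be partly technical. They leave out level shifts shared by the regions of a set. For UNC80, for example, the SE was 0.19 with the set term and 0.98 without it. Named genes were the 14 peaks and 14 dips with a symbol and the largest margin to the nearer end in both sets, and from 28 gene lists the 3 members with the smallest p and any member past 1.5-fold. The comparison and the lists were chosen with earlier results of these data known. Of 12629 symbols, 11634 occur in a RefSeq gene table of assembly GRCg7b, used for names only. The fits were run on simulated data, with a shift added to the middle libraries and independent noise at the spread that limma fitted. That checks the code and not the results reported here. Alternatives changed the set term, pseudocount (0.1 and 5), filter, scaling and each library in turn. Figures were drawn with matplotlib 3.10.9. Sequences are not printed, since no sequence file was used here.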

Additional observations from a re-analysis of the deposited data

How the results depend on the processing

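Without the set term, 0 genes passed for the mean of the ends and 0 for both ends, as in the fit with it. The counts of 0 also held under a pseudocount of 0.1 or 5, no filter, a filter at 5 RPKM, quantile normalization and median ratio rescaling. With 1 library left out, the number of genes that passed in limma ranged from 6 to 2171 for the mean of the ends and from 0 to 8 for both ends, with 1 residual degree of freedom; the cause was not tested. Margins of 1.5-fold in both sets were met by 24 peaks and 27 dips with a pseudocount of 0.1, and by 3 peaks and 5 dips with a pseudocount of 5, because the pseudocount damps low values. With 1 library left out, 1 complete set remains, and these counts ranged from 96 to 205 for peaks and from 50 to 123 for dips. For the 67 single genes, 458 values under other settings and 402 with 1 library left out had 0 reversals of direction. These genes were picked by their margin, p or values in these data. Their direction was thus largely fixed in advance and is no support. The first set is shallower (9262860 to 23537713 alignments), which limits values such as GFI1 in its middle library.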

Other observations

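Hedgehog genes, with 13 tested, had 1 above and 12 below the mean of the ends and a median of -0.18 log2 units, beside 0.03 and 43.6% below over all genes. Without the first-set middle library 8 of the 13 lay below. Cilia genes, with 17 tested, had 4 above and 13 below and a median of -0.26, with 0 at an unadjusted limma p below 0.05 in either direction. Their median was 0.008 against the proximal end and -0.48 against the distal end. Dips in both sets numbered 0 (4.83% over all genes). In both sets 4 were ordered from low proximally to high distally (8.55% over all genes). Glycolysis and hypoxia genes had 8 above and 20 below (median -0.10, but 0.09 against the proximal and -0.25 against the distal end). LDHA, a glycolytic enzyme, measured 47.0, 74.1 and 227 RPKM, then 31.0, 44.4 and 154 RPKM, a gradient to the distal end. Collagens and matrix genes had 12 above and 25 below (median -0.11), activin and TGF-beta genes 6 and 7 (-0.04), axon guidance genes 21 and 19 (0.02), and immediate early and stress genes 13 and 6 (0.04). Cell cycle genes had 19 above and 16 below, but the sets went opposite ways, with medians of 0.09 in the first and -0.13 in the second. Without the first-set middle library 5 lay above and 30 below. With the first-set proximal library left out, the split was 10 and 25. Activin and TGF-beta genes had 11 of 13 below without the first-set middle library.

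Potassium channel genes had 18 above and 19 below, with a median near 0. KCNS2, a modulatory subunit, was a distal step, at 4.26, 3.78 and 0.177 RPKM, then 9.11, 9.72 and 2.10 RPKM in the proximal, middle and distal libraries. Of the 12559 tested genes, 5 reached 1 RPKM in the 2 middle libraries alone. They passed the filter only through these libraries, and the same count was not made for the proximal or distal libraries.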
